A study of Mus musculus with 4 samples.

Results

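SOCS and PIM transcripts were examined in alveolar macrophages (AMs), which live on the airspace surface of the lung and take up surfactant and inhaled particles. The 10 genes were Cish, Socs1, Socs2, Socs3, Socs4, Socs5, Socs6, Socs7, Pim1 and Pim3, taken by name from a count table of 54532 genes, and each matched 1 row. The control group held 2 libraries of AMs from female wild-type (WT) mice that received no 4T1 inoculation. The tumor group held 2 libraries of AMs from female WT mice that had carried a primary 4T1 tumor for 2 weeks. The 4T1 line is a mouse mammary carcinoma line, and the study's methods describe 4T1 injection at the mammary fat pad on the right side, into BALB/c animals, with WT mice of that background aged 8 to 10 weeks. No genetic change or drug was used in either group, and the tumor model rests on this single cell line. The sources used here do not state how many mice gave each library or whether the libraries of a group came from separate mice. The p-values below therefore measure the spread between these libraries only, which may be technical.

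Cytokines such as GM-CSF, interferons and the IL-6 family signal through receptor-bound JAK kinases, which phosphorylate STAT factors that enter the nucleus and switch on target genes. CIS and some of the SOCS proteins are among those targets. Each protein of the family carries an SH2 domain, which docks on phosphorylated proteins, and a SOCS box that recruits a ubiquitin ligase. The members that cytokines induce thus restrain the pathway that induced them. PIM kinases are serine/threonine kinases that are active as soon as they are made, are induced by the same cytokines, and promote survival, growth and translation. GM-CSF signaling through STAT5 is needed for AMs to develop and to clear surfactant.

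Start-site sequences of the cytokine-responsive members are shown first, because STAT dimers bind a short palindrome, TTCNNNGAA, that reads the same on both strands. RefSeq promoter windows (250 bases before to 50 after a start, GRCm38.p6) were found for 6 of the 10 genes, in 7 windows, with no entry for Socs2, Socs5, Socs6 and Socs7. The palindrome occurred in 8.30% of 32851 such windows from all genes, and 0.457% held at least 2 matches. Cish held 2 matches whose first bases lie 11 bases apart, the upstream one beginning at the RefSeq start itself. Socs3 held 1 match, which began 154 bases before its start. The lines give Cish at chr9:107296654-107296683 on the plus strand and Socs3 at chr11:117969502-117969531 on the minus strand, both 5′ to 3′ with the palindromes in capitals.
Cish: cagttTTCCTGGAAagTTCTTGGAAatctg
Socs3: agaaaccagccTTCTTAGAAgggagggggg
The stretch of Cish lies in the 5′ untranslated region or upstream, depending on the GENCODE transcript, and that of Socs3 lies upstream of all its coding transcripts. The windows of Socs1, Socs4, Pim1 and Pim3 held no TTCNNNGAA, and none of the 7 windows held the form with 4 bases between TTC and GAA that STAT6 prefers, which was present in 6.95% of all windows. A match is a run of letters, and the absence of one says only that the letters are not in this window.

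The PIM genes are shown because their transcripts gave the firmest rises below, and because the study followed the aryl hydrocarbon receptor (AHR), whose core binding sequence GCGTG was searched on both strands. This core occurred in 32.4% of all windows. Pim3 held it 197 and 6 bases before its start and Socs4 held it 192 bases before its start, while both Pim1 windows held none. The lines give Pim3 at chr15:88861944-88862183 and Pim1 at chr17:29490535-29490724, both on the plus strand of GRCm38.p6, with the upstream core of Pim3 in capitals as its reverse complement.
Pim3: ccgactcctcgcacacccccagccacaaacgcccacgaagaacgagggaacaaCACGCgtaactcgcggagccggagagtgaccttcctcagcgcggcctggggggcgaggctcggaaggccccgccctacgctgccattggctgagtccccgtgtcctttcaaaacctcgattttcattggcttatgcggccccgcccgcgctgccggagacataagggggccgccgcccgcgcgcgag
Pim1: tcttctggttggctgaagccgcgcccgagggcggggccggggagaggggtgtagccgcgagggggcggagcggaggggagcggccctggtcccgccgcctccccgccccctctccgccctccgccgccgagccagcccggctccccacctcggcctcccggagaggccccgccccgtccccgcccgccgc
Both stretches are rich in G and C, at 67.5% for Pim3 and 82.1% for Pim1. Over its whole upstream window Pim1 reached 81.3% GC, above 99.3% of all windows, whose median was 52.7%, while its other window was at 49.0%, above 35.6% of them. Socs3 reached 73.3%, while Cish, at 53.3%, was close to the median.

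CPM are counts divided by the library size and brought to a common total, with sizes set by TMM scaling, which assumes that most genes do not change. Total counts per library ranged from 16167147 to 19205737, so that the floor of 3 counts corresponded to between 0.153 and 0.190 CPM, a limit that covers counting error only. Libraries of a group correlated at 0.994 and 0.992 in log2 CPM across genes, against 0.905 at the lowest between groups. As a check of the label, none of the 14 AM identity genes was at the floor in both libraries of a group, but their summed level was 16410 and 16550 CPM in the control and 12550 and 12690 CPM in the tumor libraries, with 12 of the 14 lower and 1 higher. Markers of other cells moved with the group. The tumor libraries were higher for all 10 neutrophil genes, 5 eosinophil genes, 6 basophil and mast cell genes, 5 B cell genes and 10 hepatocyte genes, and for 5 of 6 tested T and NK cell genes. Summed neutrophil markers lay between 47.9 and 48.0 CPM in control and between 3805 and 3842 CPM in tumor libraries, with 1 of the 10 genes at 0 in both controls. Summed eosinophil markers lay between 0.480 and 0.506 CPM against 2201 and 2221 CPM, with 1 of 5 genes at 0 in both controls. Basophil and mast cell markers lay between 2.03 and 2.29 CPM against 522.4 and 528.6 CPM with 3 of 6 genes at 0 in the controls, and hepatocyte markers between 0.533 and 1.08 CPM against 687.8 and 689.8 CPM with 8 of 10 at 0. T and NK cell markers lay between 3.14 and 3.42 CPM against 19.0 and 20.5 CPM, and B cell markers between 18.4 and 20.1 CPM against 41.2 and 43.6 CPM. The monocyte and interstitial macrophage list (38.6 and 38.9 CPM in control, 34.8 and 37.0 CPM in tumor, with 2 of 7 genes higher and 4 lower) and the lung epithelial list (504.1 and 530.3 CPM, 322.6 and 327.9 CPM, 2 of 7 higher and 4 lower) had no gene at 0. The most abundant gene of each list in the tumor libraries was Chil3 (AM identity, 3776 CPM), Prg2 (eosinophil, 1634 CPM), S100a9 (neutrophil, 1084 CPM), Hdc (basophil and mast cell, 472.9 CPM), Alb (hepatocyte, 469.9 CPM), Krt19 (epithelium, 182.9 CPM), Ighm (B cell, 31.6 CPM), Ccr2 (monocyte, 14.9 CPM) and Cd3d (T cell, 6.19 CPM). Granulocytes and lymphocytes also express SOCS and PIM genes, and the part of these cells in each result below was not tested. The study gated AMs for its staining as CD45+ CD11b- CD11c+ SiglecF+ cells. It mentions the isolation of AMs for staining and for sequencing together, without giving the gate again for the sequencing. In bulk RNA, fewer cells of a type and less RNA per cell cannot be told apart.

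The question was whether the feedback genes of cytokine signaling moved in AMs of tumor-bearing mice, and in which direction. All 10 genes passed the filter on low counts. Socs1, Socs2, Pim1 and Pim3 rose, Cish, Socs3, Socs4 and Socs7 fell, and Socs5 and Socs6 did not pass the test (edgeR's quasi-likelihood test, Benjamini-Hochberg adjusted p under 0.05). Of all 14256 genes tested, 29.0% were called higher and 24.8% lower, together 53.8%, so 4 rises and 4 falls among 10 genes are to be read against a table in which a call was common. The libraries of the 2 groups did not overlap in CPM for 8 of the 10 genes and for 75.1% of all genes. Both PIM genes were among the rises, while the 8 CIS and SOCS genes gave 2 rises and 4 falls. Directions hold relative to TMM scaling, under which the median gene changed by 0.02 on the log2 scale. Scaling on the AM identity genes moved that median to 0.46, kept the 4 rises, and turned Cish, Socs3, Socs5 and Socs7 to positive values, of which that of Socs7 was not called. Under that scaling 65.9% of all tested genes were called higher.

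**Figure D1:**
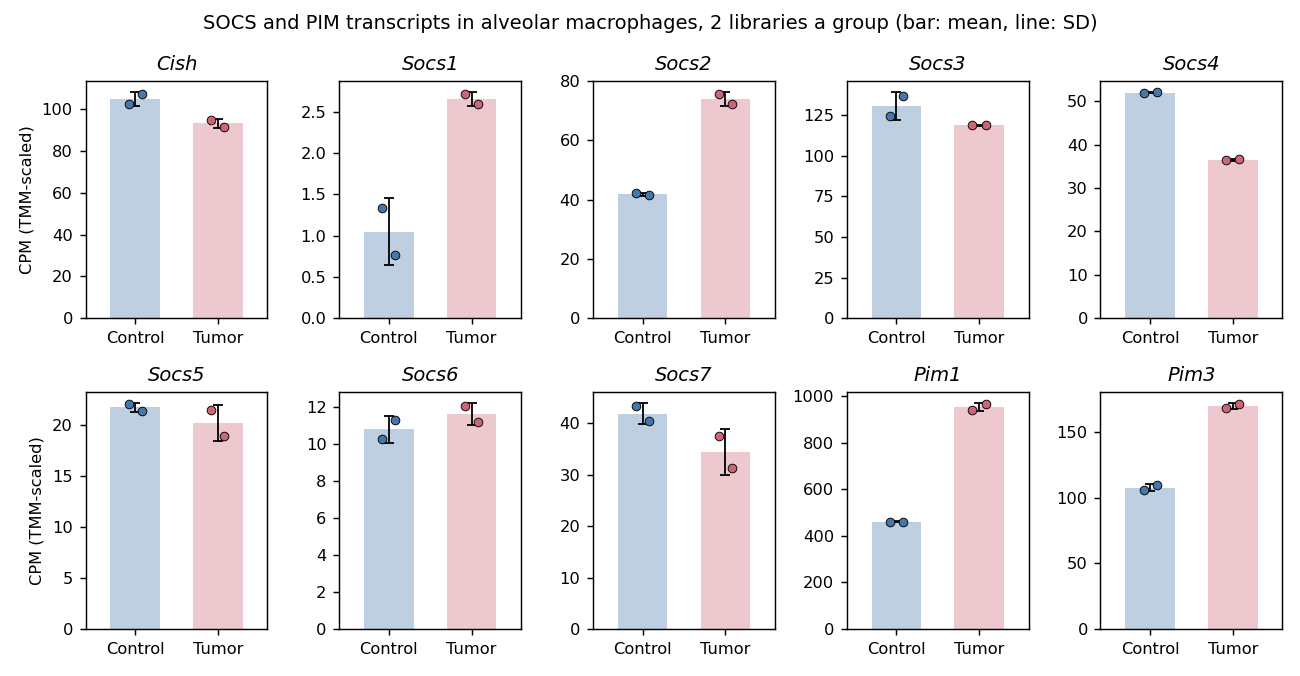
CPM (TMM-scaled) of each gene in the 2 control and 2 tumor libraries, 1 panel per gene with its own vertical axis from 0. Points are libraries, bars are means and lines are 1 SD. The tumor points of Pim1 stand at 942.1 and 966.2 CPM above control points at 461.5 and 459.1, and the groups overlap in the panels of Socs5 and Socs6 alone.

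Cish (ENSMUSG00000032578, GRCm38 chromosome 9, 107296026 to 107302784, plus strand, 3 exons) encodes CIS, the first described member of the family, which is induced by STAT5 and binds the receptors that activate STAT5. It was measured at 102.4 and 107.1 CPM in the control and 94.8 and 91.6 CPM in the tumor libraries. Both tumor values lay below both control values, and the mean went from 104.7 ± 3.38 to 93.2 ± 2.30 CPM (SD, n = 2). The log2 fold change was -0.17 with a 95% confidence interval of -0.26 to -0.07 and an edgeR adjusted p of 0.00303. Total counts as library sizes gave -0.10 (adjusted p = 0.0657) and scaling on AM identity genes gave 0.27 (adjusted p = 1.25e-05), so the call and the direction both depended on the scaling. The antisense neighbors Gm17040 and Gm17041 that overlap Cish had at most 2 counts in any library.

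Socs1 (ENSMUSG00000038037, chromosome 16, 10782240 to 10785536, minus strand) encodes an inhibitor that blocks JAK catalytic activity directly and is the main brake on interferon-γ signaling. Its coding sequence lies in 1 of its 2 exons. Control libraries held 25 and 12 counts of Socs1 and tumor libraries 47 and 51, the fewest of the 10 genes. These counts correspond to 1.33 and 0.759 CPM in control and 2.71 and 2.60 CPM in tumor, so the groups did not overlap, although the control libraries differed from each other by more than the tumor libraries did. Socs1 rose by 1.31 on the log2 scale (SE 0.33), or 2.48-fold, with a wide interval of 1.55-fold to 3.97-fold and an edgeR adjusted p of 0.00137. Under 13 alternatives the change stayed positive and called, between 0.97 and 1.78, with adjusted p values up to 0.0458.

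Socs2 (ENSMUSG00000020027, chromosome 10, 95385362 to 95417180, minus strand) encodes the main negative regulator of growth hormone signaling and is, like Cish, a STAT5 target. It was measured at 42.3 and 41.5 CPM in the control and 75.6 and 72.3 CPM in the tumor libraries. The groups were clearly apart, with means of 41.9 ± 0.568 and 73.9 ± 2.28 CPM (SD, n = 2). Socs2 rose by 0.82 on the log2 scale (95% interval 0.69 to 0.94), a 1.76-fold change with an edgeR adjusted p of 3.35e-12. The value lay between 0.78 and 1.26 under the 13 alternatives.

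Socs3 (ENSMUSG00000053113, chromosome 11, 117966079 to 117970047, minus strand) encodes the inhibitor that binds gp130 and the G-CSF receptor and limits STAT3 signaling. It was measured at 124.5 and 136.6 CPM in the control and 118.7 and 119.1 CPM in the tumor libraries. The tumor libraries nearly coincided and lay below both controls, while the control values were spread by an SD of 8.60 CPM. The log2 fold change was -0.13 (95% interval -0.22 to -0.04, edgeR adjusted p = 0.0132). This call was lost without control replicate 2 (-0.09, adjusted p = 0.208), with the DESeq2 Wald test (-0.14, adjusted p = 0.0717) and with total counts as library sizes (-0.07, adjusted p = 0.217), and the value became 0.31 with scaling on AM identity genes.

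Socs4 and Socs5 encode a related pair with long regions before the SH2 domain, both linked to control of the EGF receptor, and each is coded in a single exon. Socs4 (ENSMUSG00000048379, chromosome 14, 47276931 to 47296102, plus strand) was measured at 52.0 and 52.1 CPM in the control and 36.4 and 36.7 CPM in the tumor libraries. Libraries of a group were almost identical, and Socs4 had the most negative change of the 10 genes. It fell by 0.51 on the log2 scale (95% interval -0.65 to -0.37, edgeR adjusted p = 3.47e-07), to 0.702 of the control level. With scaling on AM identity genes the value was -0.07 (adjusted p = 0.37), so the direction was kept and the call was not. Socs5 (ENSMUSG00000037104, chromosome 17, 87107679 to 87137583, plus strand) was measured at 22.0 and 21.4 CPM in the control and 21.5 and 18.9 CPM in the tumor libraries, and the groups overlapped. Its log2 fold change of -0.11 had an interval of -0.31 to 0.10 (edgeR adjusted p = 0.385), so neither no change nor a fall the size of that of Cish was outside the interval. With scaling on AM identity genes Socs5 was at 0.33 (adjusted p = 0.00465).

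Socs6 and Socs7 encode the members that bind insulin receptor substrates and other growth factor signaling proteins. Socs6 (ENSMUSG00000056153, chromosome 18, 88665224 to 88927481, minus strand) was measured at 10.3 and 11.3 CPM in the control and 12.1 and 11.2 CPM in the tumor libraries, with overlapping groups. Its log2 fold change of 0.11 had an interval of -0.17 to 0.38 (edgeR adjusted p = 0.524), and with scaling on AM identity genes it was 0.55 (adjusted p = 0.000666). Socs7 (ENSMUSG00000038485, chromosome 11, 97362551 to 97398542, plus strand), the one SOCS gene with many coding exons (9 of 10), was measured at 43.4 and 40.4 CPM in the control and 37.5 and 31.3 CPM in the tumor libraries. The groups did not overlap, but the tumor libraries were spread by an SD of 4.45 CPM around 34.4. Socs7 fell by 0.29 on the log2 scale (95% interval -0.46 to -0.12, edgeR adjusted p = 0.00415). The call was lost without tumor replicate 2 (-0.16, adjusted p = 0.105), and with scaling on AM identity genes the value was 0.15 (adjusted p = 0.115).

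Pim1 (ENSMUSG00000024014, chromosome 17, 29490812 to 29496111, plus strand, 6 exons) encodes the founding PIM kinase, first found as a proviral integration site in mouse lymphomas. It had 8662 and 7255 counts in the control and 16335 and 18983 counts in the tumor libraries, by far the most of the 10 genes. In CPM this was 461.5 and 459.1 against 942.1 and 966.2, with group means of 460.3 ± 1.71 and 954.1 ± 17.1 CPM (SD, n = 2). The distance between the groups was many times the spread within them. Pim1 rose by 1.05 on the log2 scale (SE 0.023), or 2.07-fold with a 95% interval of 2.01-fold to 2.14-fold, and an edgeR adjusted p of 2.24e-24. The overlapping noncoding gene Gm26885 had 0 counts in every library, which allows up to 3 per library.

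Pim3 (ENSMUSG00000035828, chromosome 15, 88862186 to 88865726, plus strand, 6 exons) encodes a second kinase of the family with overlapping substrates. It was measured at 106.1 and 109.6 CPM in the control and 168.2 and 171.6 CPM in the tumor libraries. Its groups were also well apart, and Pim3 rose by 0.66 on the log2 scale (95% interval 0.58 to 0.74), or 1.58-fold, with an edgeR adjusted p of 2.95e-14. Over the 13 alternatives Pim1 lay between 1.03 and 1.49 and Pim3 between 0.62 and 1.10. The remaining kinase of the family, Pim2 on the X chromosome, is not a member but moved the same way from far fewer reads. It had 51 and 42 counts in control and 94 and 83 in tumor libraries, and rose by 0.84 on the log2 scale (edgeR adjusted p = 0.0025).

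**Figure D2:**
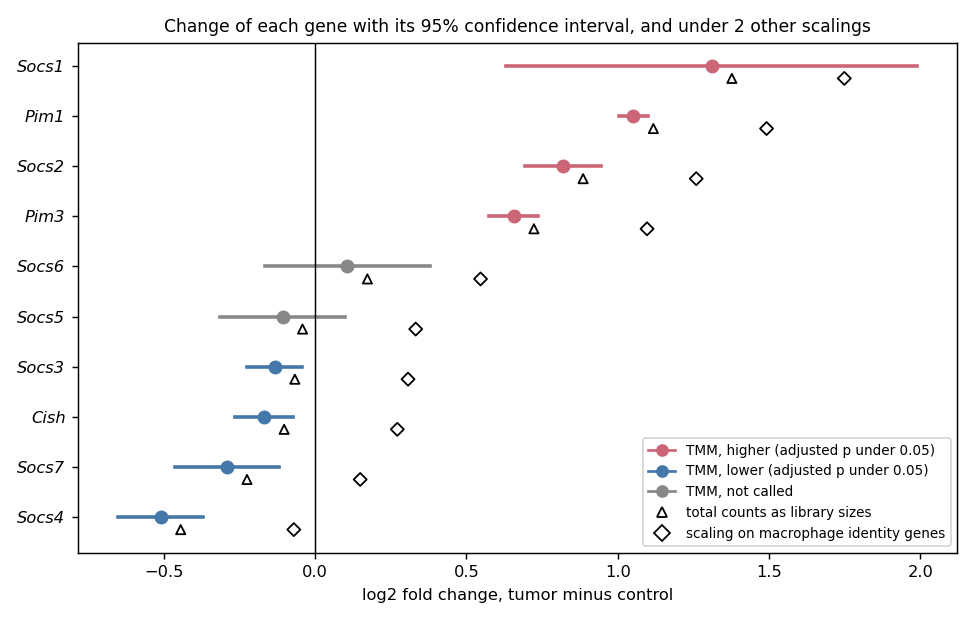
Log2 fold change of each gene, tumor minus control. Filled circles with lines are TMM-scaled estimates with 95% confidence intervals, open triangles use total counts as library sizes, and open diamonds use scaling on AM identity genes. Socs1, Pim1, Socs2 and Pim3 lie to the right of 0 under each scaling, and the diamonds of Cish (0.27), Socs3 (0.31), Socs5 (0.33) and Socs7 (0.15) lie on the other side of 0 from their circles.

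Levels of different genes were compared as CPM per kilobase of the deposited gene length. In the control group Pim1 stood highest at 174.5 ± 0.648 (SD, n = 2), followed by Socs3 at 45.2, Pim3 at 44.4, Cish at 16.3, Socs4 at 7.57, Socs7 at 5.77, Socs5 at 4.94, Socs2 at 4.39, Socs6 at 1.31 and Socs1 at 0.360. Socs3 and Pim3 overlapped in range, and no other neighbors in this order did. In the tumor group Pim1 reached 361.7, Pim3 stood at 70.0 above Socs3 at 41.1, Cish was at 14.5, and Socs2, at 7.76, had moved ahead of Socs4 (5.31), Socs7 (4.74) and Socs5 (4.60). Socs6 (1.41) and Socs1 (0.912) remained at the low end. Among tumor neighbors the ranges of Socs7 and Socs5 overlapped. Pim1 lay above 98.9% of tested genes by this level and Socs1 above 17.5%.

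The deposited length of a gene need not match that of any single transcript. For Socs2 it was 4.29 times and for Cish 2.25 times the longest coding transcript of GENCODE M21. For Socs5 and Pim1 it was shorter, at 0.945 and 0.978 times that transcript. On that transcript length, an alternative chosen after the deposited lengths were seen, Socs2 stood at 18.8 CPM per kilobase in control and 33.3 in tumor, and Cish at 36.8 and 32.7. The tumor ranges of Cish (32.1 to 33.3) and Socs2 (32.6 to 34.0) then overlapped, and both lay above Socs4. Pim1 stayed first, and Socs6 and Socs1 stayed last, on either length.

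**Figure D3:**
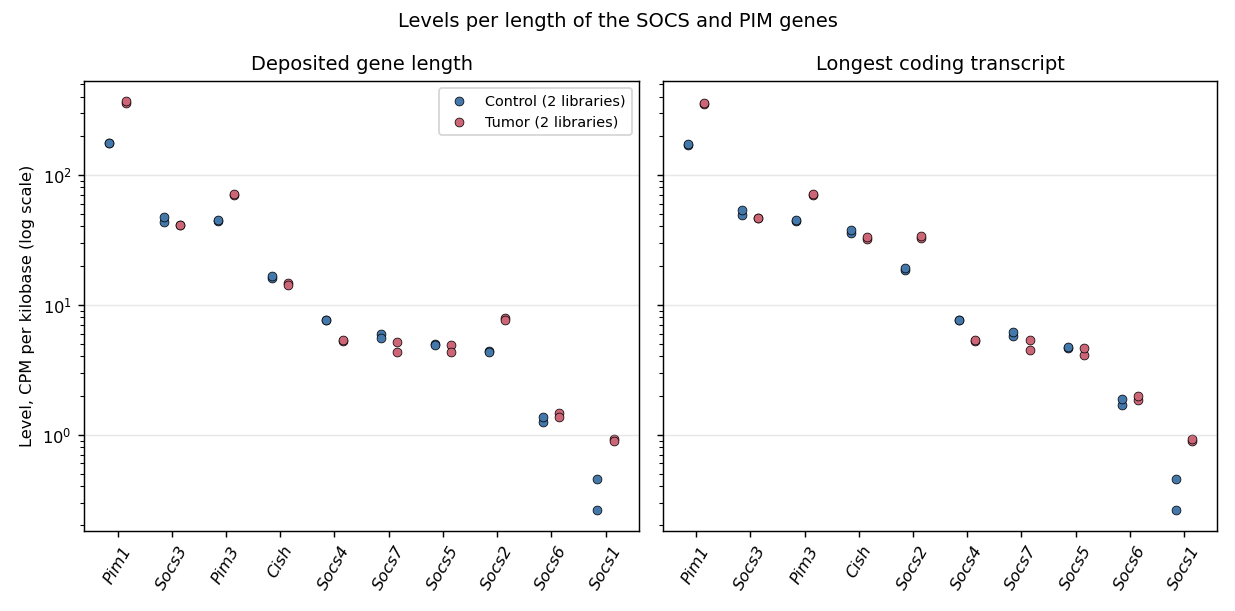
Level of each gene in CPM per kilobase on a log axis, in each of the 2 control and 2 tumor libraries, with the deposited gene length (left) and the longest coding transcript (right). Points are libraries. Pim1 is highest in both panels, at 174.5 in control and 361.7 in tumor on the deposited length, and Socs2 moves from 4.39 to 18.8 in the control group when the transcript length is used.

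Ratios between members within a library do not depend on how libraries are scaled, but their size depends on the gene lengths used. The ratio of Pim1 to Pim3, in CPM per kilobase, was 4.00 and 3.85 in the control and 5.15 and 5.18 in the tumor libraries, so the more abundant kinase also had the larger relative rise. The ratio of Socs2 to Cish was 0.278 and 0.261 in control and 0.537 and 0.532 in tumor libraries on the deposited lengths, and 0.529 and 0.496 against 1.02 and 1.01 on the transcript lengths. These groups did not overlap, and both genes are STAT5 targets by background knowledge. Socs3 to Cish was 2.70 and 2.83 against 2.78 and 2.89 on the deposited lengths, and between 1.36 and 1.45 in the 4 libraries on the transcript lengths, with overlapping groups on both. Pim1 to Cish went from 11.0 and 10.4 to 24.2 and 25.7 on the deposited lengths and from 4.76 and 4.53 to 10.5 and 11.1 on the transcript lengths. No test was made on these ratios.

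As a share of the summed level of the 8 CIS and SOCS genes, which is likewise free of the scaling but rests on the deposited lengths, Socs3 held 51.4% and 53.7% in control and 50.4% and 52.0% in tumor libraries. Cish held between 18.0% and 19.1% in all 4 libraries. Socs2 went from 5.30% and 4.94% to 9.73% and 9.58%, and Socs4 from 9.04% and 8.61% to 6.49% and 6.73%. Socs1 held 0.547% and 0.297% in control and 1.14% and 1.13% in tumor libraries. On the transcript lengths the shares were quite different: Socs3 held 39.2% and 41.2% in control and 35.2% and 36.5% in tumor libraries, Cish 28.9% in both controls and 25.2% and 25.1% in tumor libraries, and Socs2 15.3% and 14.4% against 25.8% and 25.4%. Socs2 and Socs1 thus gained share, and Socs4 lost share, on either length, whereas the sizes and the order of Cish and Socs2 did not carry over. The summed CIS and SOCS level was 83.7 and 87.9 CPM per kilobase in control and 81.5 and 79.2 in tumor libraries, but the groups overlapped with total counts as library sizes and on the transcript lengths (124.3 and 129.9 against 132.0 and 127.9), and the tumor libraries stood higher (91.8 to 95.4 against 72.2 to 75.1) with scaling on AM identity genes. The summed level of Pim1 and Pim3 was 218.7 and 219.2 in control and 426.4 and 437.0 in tumor libraries, and the tumor libraries stood higher under each of the 3 scalings.

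Many of these transcripts are short lived, and AU-rich elements in the 3′ untranslated region (UTR) are known to mark such messages for decay. The heptamer TATTTAT was counted on the sense strand of the 3′ UTR of the longest coding transcript (GENCODE M21). Pim1 held 4 copies in 1365 bases, Cish 3 in 1087, Socs3 2 in 1474 and Pim3 2 in 964. Socs2, Socs4 and Socs5 held 1 each, and Socs1, Socs6 and Socs7 held none, the last despite a UTR of 5184 bases. Across 21024 coding genes, 27.4% held at least 1 copy, 10.3% at least 2 and 4.06% at least 3. Copies were found in genes that rose (Pim1, Pim3, Socs2) and in genes that fell under TMM scaling (Cish, Socs3 and Socs4, of which Cish and Socs3 turn positive with scaling on AM identity genes), and RNA decay was not measured here.

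The rest of the pathway was described from lists, chosen with earlier results of these data known. Of 123 genes in 12 lists, 108 were tested, 54 were higher and 27 lower, against the background of 29.0% and 24.8%. Some of the rises passed the filter only through the tumor libraries, where they were high. With at least 10 counts asked of every library, 46 were higher and 26 lower. Of all 12279 genes tested under that filter, 3328 were higher and 3189 lower. Scaling on AM identity genes called 65.9% of all tested genes higher and 6.08% lower, and the counts given for that scaling below are to be read against these shares. The 4 JAK kinases, which SOCS proteins inhibit, had a median log2 fold change of 0.82, against 0.02 for all genes. Jak2, the kinase bound to GM-CSF and growth hormone receptors, rose by 1.32 (edgeR adjusted p = 2.68e-19) and Jak3, the partner of the common γ chain, rose by 1.30 (adjusted p = 2.65e-11). Jak1 rose by 0.34, while Tyk2 was at -0.18 (adjusted p = 5e-04) and turned to 0.26 with scaling on AM identity genes. Among the STAT genes, Stat5b rose by 0.59, Stat5a by 0.25, Stat2 by 0.22, Stat6 by 0.17 and Stat3 by 0.16. Stat4 had at most 7 counts and was not tested.

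Upstream of these kinases, 5 of 11 tested cytokine genes were higher and 4 lower (median 0.30), or 7 and 2 with scaling on AM identity genes. The 5 rises became 1 when at least 10 counts were asked of every library, since 4 of them passed the filter only through the tumor libraries, where they were high. Il15 rose by 0.91, whereas Lif fell by 1.86 and Il6 fell by 0.56 on the log2 scale, a call lost with scaling on AM identity genes (-0.12, adjusted p = 0.107). Csf2, which encodes GM-CSF, had 5 and 1 counts in control and 8 and 4 in tumor libraries and was not tested. Of 28 tested receptor chains 13 were higher and 7 lower (median 0.18), or 19 and 5 with that scaling. Csf3r, the G-CSF receptor that SOCS3 restrains and neutrophils carry, rose by 3.32 and Il2rb by 2.45. Il5ra, also in the eosinophil list, rose by 6.57 from 5 and 2 control counts. The GM-CSF receptor genes went the other way, with Csf2rb at -0.50 (edgeR adjusted p = 9.73e-19) and Csf2ra at -0.37 (adjusted p = 2.44e-12). Csf2rb2, which encodes the IL-3 receptor chain related to Csf2rb, was at -0.68 (edgeR adjusted p = 1.47e-19). With scaling on AM identity genes Csf2rb was at -0.05, Csf2rb2 at -0.24 and Csf2ra, with the direction turned, at 0.07. Csf2rb and Csf2rb2 are near-identical copies, and reads may have been split between them.

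Of the 7 partner genes of the ubiquitin ligase through which the SOCS box acts, 1 was higher and 2 were lower (median 0.03), but with scaling on AM identity genes 6 were higher and 0 lower (65.9% and 6.08% of all genes). Arih2 rose by 0.23, and the scaffolds Cul5 (-0.38, edgeR adjusted p = 0.000244) and Cul2 (-0.27, adjusted p = 0.00378) were lower but turned positive with scaling on AM identity genes. The adaptors Elob (0.13) and Eloc (0.08) and the RING proteins Rbx1 (0.03) and Rnf7 (-0.13) did not pass the test, and were higher at 0.57, 0.52, 0.47 and 0.31 with that scaling. Other inhibitors of the pathway gave 5 of 11 higher and 2 lower (median 0.07), or 10 higher and 0 lower with scaling on AM identity genes, with the STAT3 inhibitor Pias3 at 0.29 (adjusted p = 0.0373) and the phosphatases Ptpn11 (-0.38) and Ptpn2 (-0.22) lower, the phosphatases again turning positive with scaling on AM identity genes. The 5 rises became 2 without control replicate 2 and 3 without control replicate 1 or tumor replicate 2. On the PIM side, 7 of 13 genes of the list of Pim2 and reported PIM substrates were higher and 2 lower (median 0.48), or 13 and 0 with scaling on AM identity genes (65.9% and 6.08% of all genes). Foxo3, a transcription factor that PIM kinases phosphorylate, rose by 1.62, the chemokine receptor gene Cxcr4 rose by 1.22 and Myc, whose protein PIM1 stabilizes, rose by 1.02.

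**Figure D4:**
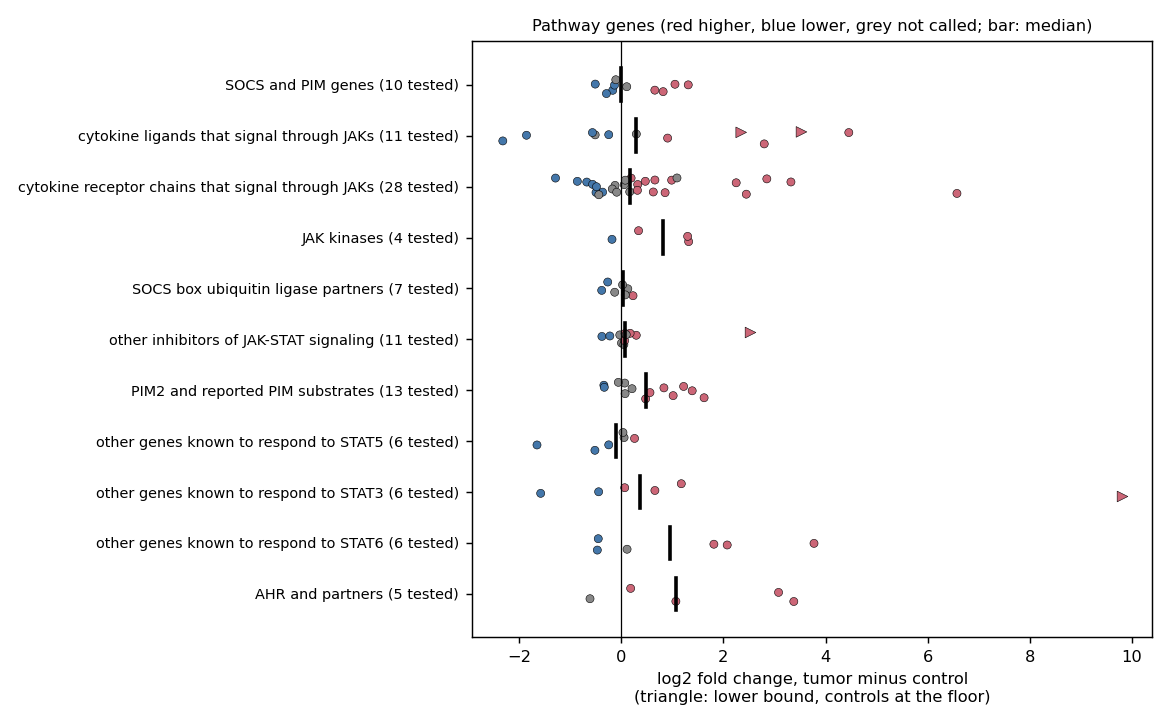
Log2 fold change, tumor minus control, of the SOCS and PIM genes and of 10 pathway lists, TMM scaling. Each point is a gene (red higher, blue lower, grey not called), triangles are lower bounds for genes at or under 3 counts in both controls, vertical bars are medians and the vertical line is 0. The JAK kinases have a median of 0.82 and the SOCS box ubiquitin ligase partners one of 0.03.

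Other genes known to respond to the same STAT factors moved in both directions. Among 6 STAT5 responders 1 was higher and 3 lower (median -0.11), with Ccnd2 at -1.65 (edgeR adjusted p = 4.28e-28), Id1 at -0.52 and Bcl2l1 at 0.26, the only rise, which was lost without tumor replicate 1 (0 higher). With scaling on AM identity genes 3 were higher and 1 lower, and Id1 was no longer called (-0.08, adjusted p = 0.63). Among 6 STAT3 responders 4 were higher and 2 lower (median 0.36), or 4 and 1 with scaling on AM identity genes: Saa3, an acute phase gene, had 2 and 1 control counts and was at least 889.2-fold higher, Nfil3 rose by 1.18, and Il1rn fell by 1.58 on the log2 scale. Among 6 STAT6 responders 3 were higher and 2 lower (median 0.96), with Ccl17 at 3.77 and Mrc1 at -0.47. With scaling on AM identity genes 3 were higher and 0 lower, and Mrc1 was no longer called (-0.03, adjusted p = 0.179). Of 5 tested genes of the AHR list 4 were higher and none lower (median 1.07), against 29.0% and 24.8% of all genes. Ahr was at 3.38 (edgeR adjusted p = 1.72e-21), Tiparp at 1.07 and Arnt at 0.18, or 3.82, 1.51 and 0.62 with scaling on AM identity genes. The remaining rise had 8 and 7 control counts and passed the filter only through the tumor libraries. Cyp1a1 and Cyp1b1 had at most 1 count and were not tested. The marker lists of granulocytes given above moved with the same groups, and their part in these lists was not tested.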

How the data were processed

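RNA of AMs was sequenced in 2 control and 2 tumor libraries. The authors extracted RNA with TRIzol, prepared NEBNext Ultra RNA libraries, sequenced paired ends on an Illumina HiSeq, aligned with HISAT2 (2.0.5 in the submitters' processing notes, which also list DESeq2) and counted with FeatureCounts. The deposited values are raw counts per gene, with gene lengths. The genome build, annotation, strandedness and treatment of multiply matching reads are not given in the sources used here. Deposited coordinates match GENCODE M21 (GRCm38).

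Libraries were grouped by the titles in the labels. Counts of 54532 genes were analysed with edgeR 4.0.16 in R 4.3.3. Genes were kept by filterByExpr (minimum count 10), leaving 14256 tested and 40276 not tested, with TMM scaling, glmQLFit and glmQLFTest, group as the only term, Benjamini-Hochberg adjustment over all tested genes and a threshold of 0.05. A group with both libraries at or under 3 counts gave a lower bound, from the lower tumor CPM and the higher control floor. The members and lists were chosen with earlier results of these data known. All 10 members were named. Of each pathway list, up to 3 called genes were named, by largest absolute change, with at least 100 counts in the mean of the higher group. Also named were the JAK, STAT and SOCS box partner genes, Csf2, Csf2ra, Csf2rb, Csf2rb2, Pim2 and Ahr. Of each marker list, the most abundant gene in tumor libraries was named. Some named genes and 1 pathway list are not reported here. The fit was tested on simulated counts beforehand. Alternatives were other scalings, filters and thresholds, limma-voom (limma 3.58.1), DESeq2's Wald test (version 1.42.0), leaving out the 20 most counted genes, a replicate block and leaving out each library. Sequences came from RefSeq (GRCm38.p6) and GENCODE M21.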

Additional observations from a re-analysis of the deposited data

How the results depend on the processing

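The rises of Socs1, Socs2, Pim1 and Pim3 kept their direction and call under each of the 13 alternatives run on single genes. Scaling on AM identity genes gave 8 members higher and 0 lower, in place of 4 and 4, with Cish at 0.27, Socs3 at 0.31, Socs5 at 0.33 and Socs6 at 0.55 now called higher and Socs7 at 0.15 not called (adjusted p = 0.115). It gave 82 pathway genes higher and 10 lower in place of 54 and 27, where 65.9% of all tested genes were higher and 6.08% lower. The median change over all genes went from 0.02 to 0.46 on the log2 scale, and 91.6% of its calls were higher, against 53.9% with TMM and 62.6% with total counts. Total counts as library sizes left 2 members lower. An absolute log2 fold change of at least 1 left 2 members higher and 0 lower, and 27 pathway genes higher and 6 lower. Leaving out each library in turn, where the lone library of a group was assumed to vary like the others, gave 4 members higher each time and 3 to 4 lower, with 49 to 52 pathway genes higher and 26 to 27 lower. The replicate number as a block gave 4 members higher and 4 lower, and 4021 genes higher and 3425 lower in all, against 4136 and 3535. Over all genes, libraries with the same number did not deviate together (correlation -0.0028). Counting noise can hide a shared effect in this value, and the labels do not say whether equal numbers mark a pair. Whether the samples are paired was therefore not settled. Of 360 counts for single lists 51 moved by more than 1.5 times. Of 20 mean levels per length, 8 moved by more than 1 SD with total counts, by at most 2.34%. With 2 libraries per group the spread is borrowed across genes, and Socs1, with 12 to 51 counts, is limited by depth.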
